A study of Mus musculus with 14 samples.

Results

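To assess how the let-7 miRNAs respond to radiation, their counts were compared in extracellular vesicles (EVs) from the plasma of sham mice and of irradiated mice, which received whole-body ionizing radiation (WBIR) at 2 Gy or 9 Gy. Members were all entries of the measured miRNA panel whose name begins with mmu-let-7, a rule that uses names and no measured value. This gave 8 of the 599 miRNA entries in a table of 626 entries, namely mmu-let-7a, mmu-let-7b, mmu-let-7c, mmu-let-7d, mmu-let-7e, mmu-let-7f, mmu-let-7g and mmu-let-7i, which are written without the prefix below. The mice were female C57BL/6J animals, 6 to 8 weeks old, exposed in a caesium-based irradiator or handled as sham. The EVs of irradiated mice were isolated on day 3, the labels give no day for sham, and the groups held 4 samples for sham and 5 for each dose. The vesicles were pelleted from cleared plasma by centrifugation, a preparation that does not select for a cell of origin. The labels do not say whether samples came from separate mice, so p-values measure only the spread between these samples, which may be technical. Fewer vesicles and less miRNA per vesicle cannot be told apart in such samples. The authors loaded a fixed amount of RNA per assay, so counts do not follow vesicle number directly. They reported fewer plasma EVs on day 3 after 9 Gy, and no significant change in EV number after 2 Gy.

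Let-7 was among the first miRNAs to be found, and in mammals it is a family of nearly identical short RNAs made from separate genes. A miRNA finds its target mRNAs mainly through its seed, the stretch near its 5′ end, so members with 1 shared seed are thought to repress largely the same mRNAs. Known let-7 targets include Ras genes, Hmga2 and Lin28, and the Lin28 proteins in turn block the maturation of let-7 precursors. Let-7 is low in stem cells, rises as cells differentiate, and is commonly found in blood cells, platelets and circulating vesicles.

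All 8 members were matched to a mature sequence of RefSeq (assembly GRCm38.p6), where the panel's names without an arm correspond to the 5p arm. The sequences are shown because the members that differed after WBIR and those that did not are separated by only a few bases. Capitals mark the seed, bases 2 to 8 from the 5′ end.
let-7a: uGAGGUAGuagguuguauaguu
let-7b: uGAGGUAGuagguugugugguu
let-7c: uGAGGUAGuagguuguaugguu
let-7d: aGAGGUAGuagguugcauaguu
let-7e: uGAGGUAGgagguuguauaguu
let-7f: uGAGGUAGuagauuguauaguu
let-7g: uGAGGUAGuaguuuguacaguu
let-7i: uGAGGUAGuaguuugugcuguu

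All 8 mature miRNAs had 22 bases and 1 seed. Any pair differed at 1 to 6 bases. Relative to let-7a, and with positions counted from 1 at the 5′ end, let-7d carried U1A and U16C, let-7e carried U9G, and let-7f carried G12A. All differences lay outside the seed. Let-7d and let-7e differed from each other at 3 bases, let-7d and let-7f at 3, and let-7e and let-7f at 2. How far the panel tells such close sequences apart was not tested.

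The 8 mature miRNAs were matched to 10 gene loci. This list is not complete, since the gene of miR-100 lies within 10 kb of a let-7 gene but near none of these 10. The gene of let-7d lies beside those of let-7a and let-7f on chromosome 13, all on the minus strand and outside any other annotated gene. The mature let-7d lies at chr13:48536078-48536099, that of Mirlet7f-1 at chr13:48537889-48537910 and that of Mirlet7a-1 at chr13:48538239-48538260, a span of 2183 bases in all. A further copy of let-7f, Mirlet7f-2, lies at chrX:151912353-151912374 on the plus strand, inside the bounds of Huwe1 and next to Mir98. Let-7e has 1 gene, at chr17:17830366-17830387 on the plus strand, inside the bounds of Spaca6 and next to Mir99b and Mir125a. Since the mature sequence of let-7f is the same from both of its genes, its count cannot be assigned to either.

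The panel counts single molecules by color-coded barcodes after a ligation step that tags each miRNA, and all values below are counts as deposited unless they are called scaled. Total miRNA counts ran from 4781 to 6926 in sham samples, between 8019 and 10455 at 2 Gy and between 11518 and 20150 at 9 Gy. The ligation positive controls, synthetic templates that report how well tagging worked, had geometric means of 136 to 634 counts in sham samples and 1935 to 3463 in irradiated samples. Sham and low ligation therefore cannot be told apart in any comparison against sham. The 8 negative controls are probes without a target and give the background. Of these, NEG_C stood apart with 27 to 76 counts, and the other 7 lay between 1 and 18 counts.

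Let-7f was the only member above all negative controls other than NEG_C in each of the 14 samples. Its counts were 63, 54, 40 and 32 in sham, 38, 49, 51, 46 and 42 at 2 Gy, and 41, 54, 46, 50 and 42 at 9 Gy, and it had the highest let-7 count in all 14 samples. It ranked 10 among the 599 miRNA entries by mean count, and its counts averaged 5.94 times the median negative control of the same sample in sham, 5.98 times at 2 Gy and 6.55 times at 9 Gy. The 3 groups overlapped fully.

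The other members stood close to the negative controls. Let-7a had 1 count in each of the 14 samples, below the median negative control in all of them. The smallest value among the miRNA entries was 1, which made up 351 of their 8386 values, and only 3 entries were at 1 throughout. Whether such values stand for a count of 0 is not given in the sources used here, and no fold change is given for let-7a. Over all samples, let-7g averaged 18.5 ± 5.56 counts, let-7e 15.6 ± 8.71, let-7c 13.9 ± 2.18, let-7d 12.4 ± 9.17, let-7b 12.4 ± 4.75 and let-7i 10.9 ± 2.84 (SD, n = 14). The ranges of neighbours in this order overlapped. Probes are not calibrated against each other, so this order describes counts and not amounts.

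How many values exceeded background depended on the limit. A limit set in each sample at 2 SD above its negative control mean was exceeded by 8 of the 112 let-7 values, all of them let-7f. With NEG_C left out of that limit, 46 of 112 were above it. These included let-7f in 14 of 14 samples, let-7e and let-7g in 8 each, let-7d in 6, let-7c in 5, let-7b in 3 and let-7i in 2. By dose, let-7d exceeded this limit in 0 of 4 sham samples, 1 of 5 samples at 2 Gy and 5 of 5 samples at 9 Gy. For let-7e the numbers were 0 of 4, 3 of 5 and 5 of 5.

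**Figure D1:**
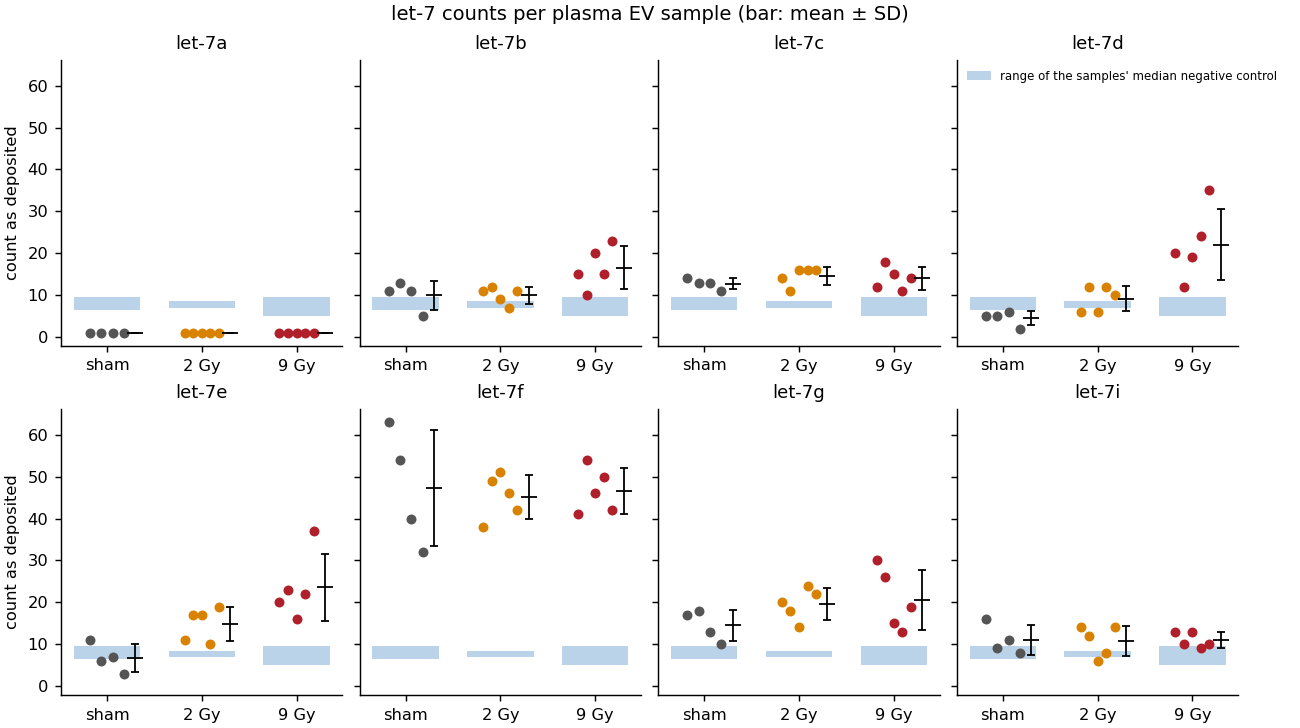
Counts as deposited (vertical axis) of each let-7 miRNA in each sample, by group, with the group mean ± SD at the right of each group and the range of the samples' median negative control as a blue band. Let-7f lies far above the band in each group, let-7a stays at 1 count, and let-7d and let-7e lie within or below the band in sham samples apart from 1 let-7e value of 11 and above it in all samples at 9 Gy.

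Let-7d had 5, 5, 6 and 2 counts in sham samples, 6, 12, 6, 12 and 10 at 2 Gy, and 20, 12, 19, 24 and 35 at 9 Gy. No sham sample reached its own median negative control, while 3 of 5 samples did so at 2 Gy and 5 of 5 at 9 Gy. The sham and 2 Gy groups met at 6 counts and the 2 Gy and 9 Gy groups at 12 counts, and sham and 9 Gy did not overlap. Group means (± SD) were 4.5 ± 1.73 counts for sham (n = 4), 9.2 ± 3.03 for 2 Gy (n = 5) and 22 ± 8.46 for 9 Gy (n = 5). From the summed counts, the exact 95% Poisson interval of these means ran from 2.67 to 7.11, from 6.74 to 12.3 and from 18.1 to 26.5 counts, which covers counting error only. Let-7d reached the minimum mean of 10 counts for testing through its 9 Gy samples, since its means in sham and at 2 Gy were lower.

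Let-7e followed the same order of groups. Its counts were 11, 6, 7 and 3 in sham, 11, 17, 17, 10 and 19 at 2 Gy, and 20, 23, 16, 22 and 37 at 9 Gy. The sham and 2 Gy groups overlapped between 10 and 11, the 2 Gy and 9 Gy groups overlapped between 16 and 19, and sham and 9 Gy did not overlap. Its means (± SD) were 6.75 ± 3.30 counts for sham (n = 4), 14.8 ± 4.02 for 2 Gy (n = 5) and 23.6 ± 7.96 for 9 Gy (n = 5). Counting error alone allowed means of 4.45 to 9.82, of 11.6 to 18.6 and of 19.5 to 28.3 counts. The highest count of let-7d and of let-7e was in the same sample, 9 Gy replicate 5, which also had the highest total count.

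The first comparison was between the 2 Gy and sham samples. In the quasi-likelihood fit of edgeR over 176 tested miRNAs, with samples scaled by TMM (a trimmed mean of log ratios), 2 of the 7 tested let-7 miRNAs passed an adjusted p of 0.05, and both were higher than in sham, a direction that turned when samples were scaled to the ligation controls. Among all tested miRNAs 13.1% were called higher. Let-7e had a log2 fold change of 1.26 ± 0.30 (SE, adjusted p 0.000919 by edgeR), and let-7d one of 1.15 ± 0.38 (SE, adjusted p 0.0287 by edgeR). The let-7d call was lost with 2 Gy replicate 2, 4 or 5 or sham replicate 1, 2 or 4 left out, with adjusted p from 0.0550 to 0.108 by edgeR, with no filter on low counts (adjusted p 0.0539 by edgeR), with the median negative control subtracted (log2 fold change 1.53, adjusted p 0.232 by edgeR), and under DESeq2 (adjusted p 0.0829). It was also lost under TMM over the tested miRNAs alone and hybridisation control scaling (adjusted p 0.0652 and 0.0605 by edgeR), with the 100 highest miRNAs for scaling (0.73, adjusted p 0.136 by edgeR), under total count scaling (0.45, adjusted p 0.313 by edgeR), by limma-voom (0.97, adjusted p 0.565) and by an exact permutation test (adjusted p 0.155). With the replicate number as a block, let-7d was not called either (1.02, adjusted p 0.0630 by edgeR). The let-7e call was lost under total count scaling (0.56, adjusted p 0.111 by edgeR), by limma-voom (1.15, adjusted p 0.164) and by the exact permutation test (1.36, adjusted p 0.0822), where let-7e had the smallest p that the samples allow and 0 of the 176 miRNAs passed. With the median negative control subtracted, let-7e had 2.29 at 2 Gy (adjusted p 0.0194 by edgeR). For 0 of the 7 were the counts at 2 Gy free of overlap with sham, against 9.66% of all tested miRNAs that were higher without overlap. In TMM-scaled counts, looked at after seeing the data, let-7d and let-7e were free of overlap, against 12.5% of all tested miRNAs.

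The remaining 5 did not pass at 2 Gy. Let-7g came nearest, with 17, 18, 13 and 10 counts in sham and 20, 18, 14, 24 and 22 at 2 Gy, and a log2 fold change of 0.58 ± 0.27 (SE, adjusted p 0.211 by edgeR). Let-7f had 0.10 ± 0.20 (SE, adjusted p 0.903 by edgeR). The values of let-7b, let-7c and let-7i were 0.14, 0.33 and 0.11 with adjusted p of 0.615 to 0.903 by edgeR. The median over the 7 tested let-7 miRNAs was 0.33, beside 0.05 over all tested miRNAs.

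After 9 Gy, 2 of the 7 tested let-7 miRNAs again passed against the shared sham samples, and these were let-7d and let-7e, both higher except under ligation scaling, where both lay lower. Here 15.9% of all tested miRNAs were called higher. Let-7d had a log2 fold change of 2.06 ± 0.32 (SE, adjusted p 1.93e-07 by edgeR, and 5.92e-08 with no filter on low counts), and let-7e one of 1.59 ± 0.28 (SE, adjusted p 2.78e-06 by edgeR). Since sham counts of let-7d exceeded the median negative control in 0 of 4 samples and those of let-7e in 1 of 4, the size of both values depends on background. With the median negative control subtracted they were 3.49 and 3.10 (adjusted p 0.000279 and 0.000613 by edgeR), but the sham values are then at the floor in all 4 samples for let-7d and in 3 of 4 for let-7e, so these sizes depend on the floor and are no estimate of the change. The same holds for the values of let-7d and let-7e at 2 Gy with that subtraction, and for their ratios to let-7f against sham. For both, the lowest count at 9 Gy exceeded the highest in sham, which held for 15.3% of all tested miRNAs in the higher direction. Each of the 14 fits that left out 1 sample kept both calls. By limma-voom let-7d did not pass (adjusted p 0.0825), the exact permutation test, which called none of the 176, gave an adjusted p of 0.0559 for both, and under total count scaling let-7e did not pass (adjusted p 0.0753 by edgeR).

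Let-7b had 11, 13, 11 and 5 counts in sham and 15, 10, 20, 15 and 23 at 9 Gy, with a log2 fold change of 0.53 ± 0.26 (SE, adjusted p 0.198 by edgeR). The groups overlapped between 10 and 13 counts. Let-7c, let-7f, let-7g and let-7i had values of -0.06, -0.19, 0.33 and -0.19 and adjusted p of 0.553 to 0.915 by edgeR. The median over the 7 was 0.33, beside 0.01 over all tested miRNAs.

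**Figure D2:**
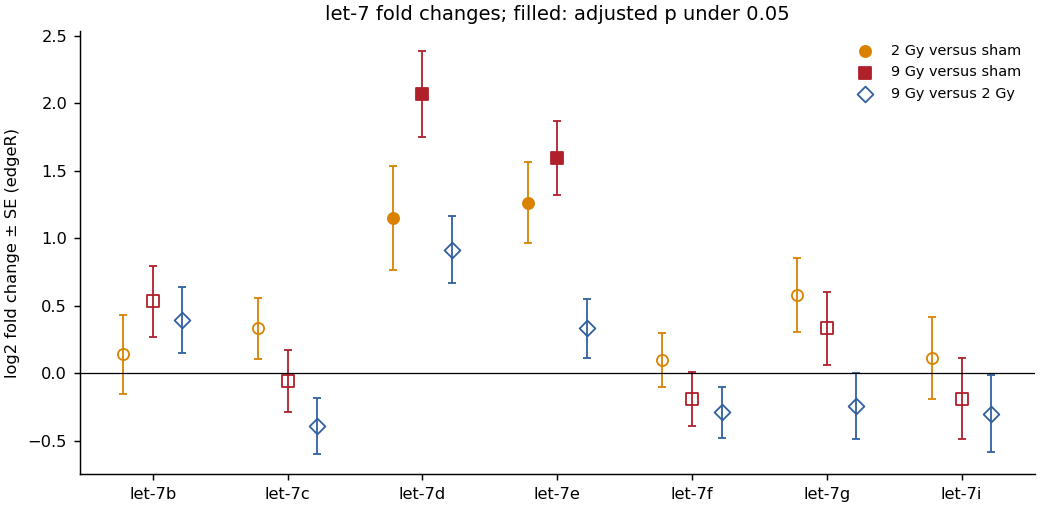
Fitted log2 fold change ± SE of the 7 tested let-7 miRNAs in the 3 comparisons (circles for 2 Gy versus sham, squares for 9 Gy versus sham, diamonds for 9 Gy versus 2 Gy), with filled symbols where the adjusted p was under 0.05. Only let-7d and let-7e have filled symbols, in both comparisons against sham, and both of their values against sham turn negative when samples are scaled to the ligation controls.

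How samples were scaled moved all values together. Under TMM, total count, DESeq2 size factors and the other scalings tried, the median of all tested miRNAs ran from -3.13 with the ligation controls and -0.66 with total counts to 0.08 with TMM without miR-376a at 2 Gy, and from -3.05 with the ligation controls to 0.22 with the hybridisation controls at 9 Gy. A scaling shifts all miRNAs of a sample together, so distances from that median are nearly fixed by construction and are given as a description. Let-7d lay 1.10 to 1.27 higher at 2 Gy and 2.05 to 2.19 higher at 9 Gy than the median over the 8 scalings (log2). Let-7e lay 1.21 to 1.41 and 1.58 to 1.75 higher. Let-7f lay between -0.06 and 0.05 at 2 Gy and between -0.28 and -0.17 at 9 Gy. Under total count scaling let-7f was called lower than sham at both doses, at -0.61 and -1.19, where the median of all tested miRNAs was -0.66 and -1.02.

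**Figure D3:**
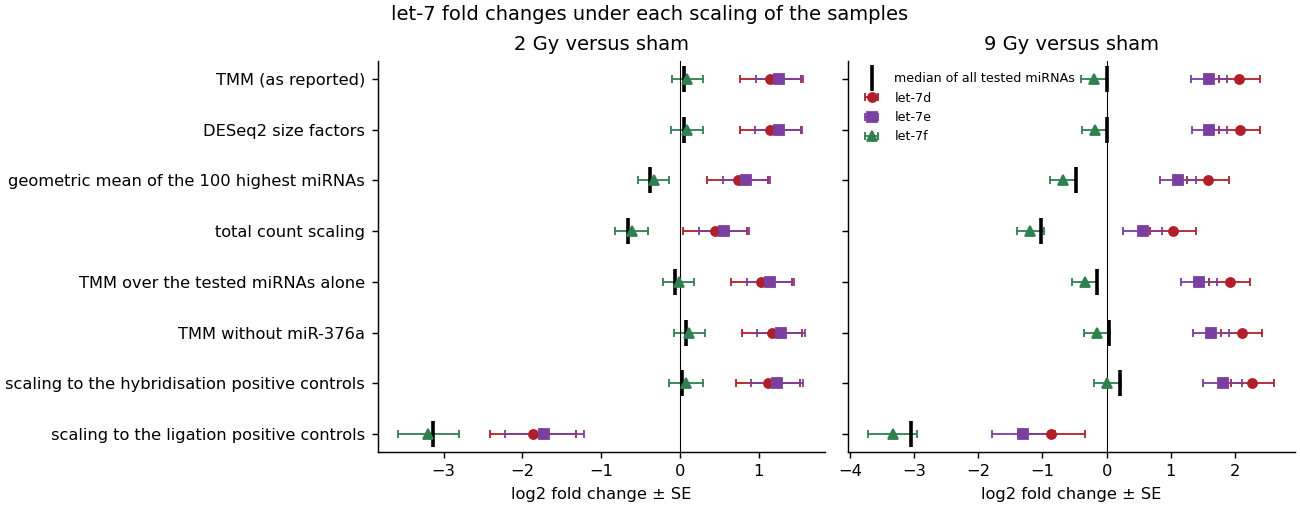
Log2 fold change ± SE of let-7d, let-7e and let-7f under 8 ways of scaling the samples, with the median of all 176 tested miRNAs as a black tick. Scaling to the ligation controls moves all symbols below 0, and let-7d and let-7e stay to the right of the tick in each row while let-7f stays near it.

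The doses were then compared directly, where the ligation controls of both groups lay in 1 range. No let-7 miRNA passed, and neither did any other tested miRNA, so the share called higher was 0%. At an unadjusted p under 0.05 there were 20 of 176 by edgeR, and DESeq2 and limma-voom each called 1, which was no let-7. Let-7d, with 6 to 12 counts at 2 Gy and 12 to 35 at 9 Gy, had the third largest log2 fold change of all tested miRNAs at 0.91 ± 0.25 (SE, adjusted p 0.0883 by edgeR). It was higher at 9 Gy than at 2 Gy in all 8 scalings, but these shift all miRNAs of a sample together and are no separate checks. It passed when replicate 2 or replicate 4 of the 2 Gy group was left out (adjusted p 0.0423 and 0.0339 by edgeR), and when replicate 2 of the 9 Gy group was (adjusted p 0.00533 by edgeR). It also passed under hybridisation control scaling (1.15, adjusted p 0.0150 by edgeR) and with the replicate number as a block (0.90, adjusted p 0.0186 by edgeR). With the median negative control subtracted it passed at 1.96 (adjusted p 0.0492 by edgeR). Let-7d in 2 Gy replicates 1 and 3 is then at the floor, so that size depends on the floor. Total count scaling lowered the value to 0.58 (adjusted p 0.184 by edgeR). The other 11 fits without 1 sample did not call it, with adjusted p of 0.0621 to 0.259 by edgeR, the highest without 9 Gy replicate 5 (0.74). With no filter on low counts the adjusted p was 0.188 by edgeR, and under ligation scaling it was 0.399 by edgeR. No let-7 miRNA was free of overlap between the doses, against 5.68% of all tested miRNAs that were higher without overlap.

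Let-7e had a log2 fold change of 0.33 ± 0.22 between the doses (SE, adjusted p 0.540 by edgeR) and let-7b one of 0.39 ± 0.25 (SE, adjusted p 0.538 by edgeR). Let-7c, let-7f, let-7g and let-7i lay between -0.39 and -0.25, with adjusted p of 0.538 to 0.759 by edgeR. The median over the 7 was -0.25, beside 0.03 over all tested miRNAs.

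Ratios between 2 members of the same sample do not depend on how samples are scaled, and they test whether members responded unequally. The let-7d count relative to that of let-7f was 0.0794, 0.0926, 0.15 and 0.0625 in sham, 0.158, 0.245, 0.118, 0.261 and 0.238 at 2 Gy, and 0.488, 0.222, 0.413, 0.48 and 0.833 at 9 Gy. This ratio was 4.91-fold higher at 9 Gy than in sham (exact permutation test, two-sided p 0.00794), with no overlap. It was 2.14-fold higher at 2 Gy than in sham (exact permutation p 0.0317) and 2.29-fold higher at 9 Gy than at 2 Gy (exact permutation p 0.0317). The exact permutation p of the 2 Gy value was 0.0571 with replicate 1, 2, 4 or 5 of that group left out, and 0.0536 with sham replicate 1, 2 or 4 left out. With the median negative control subtracted from both counts it was 0.0873.

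For let-7e relative to let-7f the ratio was 0.175, 0.111, 0.175 and 0.0938 in sham, 0.289, 0.347, 0.333, 0.217 and 0.452 at 2 Gy, and 0.488, 0.426, 0.348, 0.44 and 0.881 at 9 Gy. Against sham it stood 2.39-fold higher after 2 Gy and 3.66-fold higher after 9 Gy, without overlap in either case (p 0.00794 both times by the two-sided exact permutation test, the smallest that 4 against 5 samples allow). Between the doses it was 1.53-fold higher at 9 Gy (exact permutation p 0.0556). Let-7d relative to let-7e did not pass with all samples, at 0.897-fold for 2 Gy versus sham (exact permutation p 0.667), 1.34-fold for 9 Gy versus sham (exact permutation p 0.214) and 1.49-fold for 9 Gy versus 2 Gy (exact permutation p 0.167). Without 9 Gy replicate 2 the exact permutation p at 9 Gy versus sham was 0.0286, and without 2 Gy replicate 4 that between the doses was 0.0476. For let-7e relative to let-7f between the doses it was 0.0159 without 2 Gy replicate 5 and 0.0317 without 9 Gy replicate 3.

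**Figure D4:**
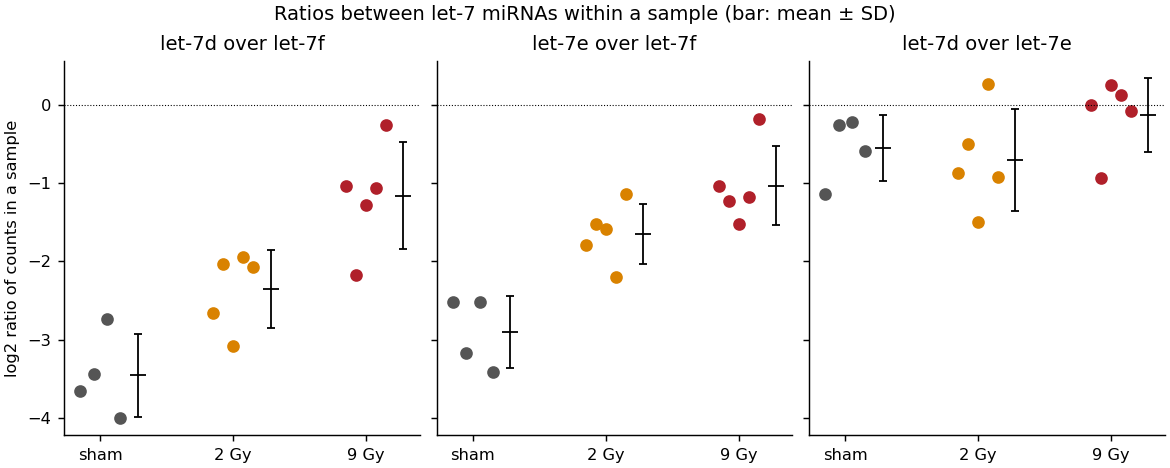
Log2 ratio of 2 let-7 counts in the same sample, by group, with the mean ± SD at the right of each group. The group means of let-7d and let-7e relative to let-7f are lowest in sham and highest at 9 Gy, while single samples of some groups overlap. Let-7d relative to let-7e shows no such order.

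In all, 63 ratios were tested, 21 pairs in 3 comparisons, with unadjusted p. At 9 Gy versus sham, p was under 0.05 for 10 pairs, and these were the 10 that set let-7d or let-7e against let-7b, let-7c, let-7f, let-7g or let-7i. At 2 Gy versus sham it was under 0.05 for 7 of the same 10 pairs and at 9 Gy versus 2 Gy for 4 of them, each of which contained let-7d. None of the 10 pairs without let-7d and let-7e was under 0.05 in any comparison. These ratios are of counts with background included. The 10 pairs all reuse let-7d or let-7e, the members already called higher, so they are not separate results. The share of pairs under 0.05, or free of overlap, among all tested miRNAs was not computed.

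In counts as deposited, with background included, the ligation controls differed more between irradiated and sham samples than any let-7 miRNA did. Relative to sham, geometric means of the ligation controls were 7.88-fold at 2 Gy and 8.98-fold at 9 Gy. Geometric mean counts of let-7d were 2.11-fold and 4.98-fold those in sham, those of let-7e 2.35-fold and 3.72-fold, and those of let-7f 0.984-fold and 1.01-fold. The hybridisation positive controls, which skip ligation, were at 0.926-fold and 0.989-fold.

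With the log2 ligation control as a covariate, no let-7 miRNA passed against sham. Let-7d then had -0.11 ± 0.93 at 2 Gy and 0.72 ± 0.97 at 9 Gy, and let-7e 0.10 ± 0.78 and 0.35 ± 0.82 (log2 fold change, SE). The errors were wide because no sham sample shares a ligation level with an irradiated one, and the part of ligation in these results cannot be told apart from that of WBIR.

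Within the 10 irradiated samples, after removal of the dose means, the log2 count of let-7d followed the log2 ligation control with a Pearson r of 0.24 and a Spearman rho of 0.32 (exact permutation within dose, p 0.507 and 0.385, adjusted p 0.920 and 0.849 over 176 miRNAs). Without 9 Gy replicate 5 the r of let-7d was -0.13, and without the 2 samples farthest from the median ligation value it was 0.51 (exact permutation p 0.212). Let-7e had an r of 0.09 and a rho of -0.22 (exact permutation p 0.798 and 0.562, adjusted p 0.983 and 0.898). For let-7f the r was -0.69 and the rho -0.65 (exact permutation p 0.0435 and 0.0656, adjusted p 0.366 and 0.849), and the r without the 2 farthest samples was -0.36 (exact permutation p 0.420). No let-7 miRNA passed after adjustment, the median r was 0.14 over the 7 and 0.11 over all tested miRNAs, and 2 of the 176 passed by r.

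**Figure D5:**
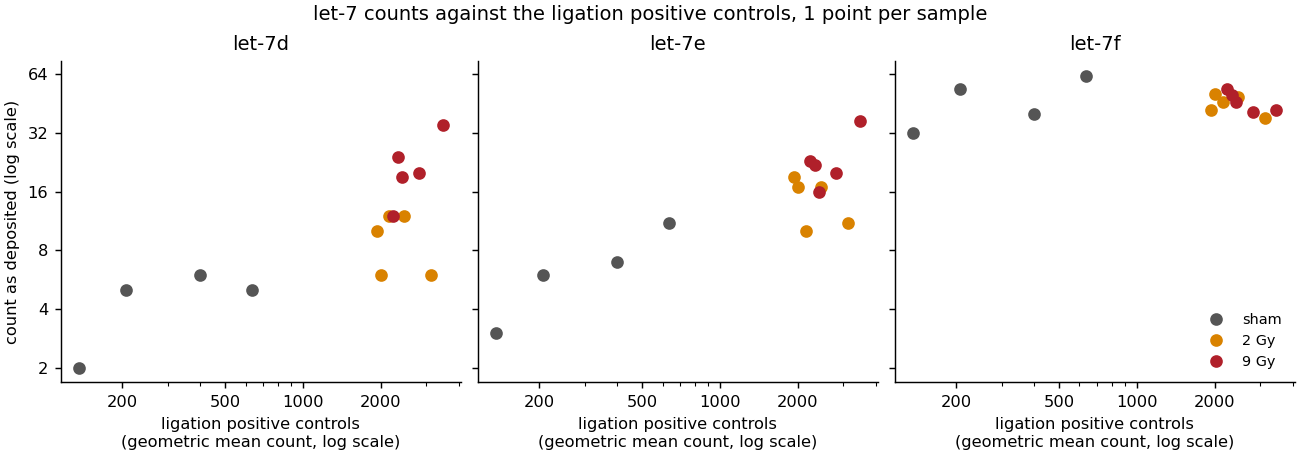
Counts of let-7d, let-7e and let-7f (vertical, log scale) against the geometric mean count of the ligation positive controls (horizontal, log scale), with 1 point per sample and color by group. Sham samples lie at 136 to 634 and irradiated samples at 1935 to 3463 on the horizontal axis, and let-7f keeps its level across this gap.

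The summed let-7 counts were 138, 119, 102 and 72 in sham, 115, 132, 120, 124 and 135 at 2 Gy, and 152, 154, 145, 145 and 181 at 9 Gy. As a share of all miRNA counts the family made up 1.51% to 1.99% in sham, 1.10% to 1.5% at 2 Gy and 0.898% to 1.26% at 9 Gy. Much of the total in irradiated samples was miR-376a, which had 10 to 31 counts in sham, 1789 to 3703 at 2 Gy and 4100 to 10763 at 9 Gy. With miR-376a left out of the total, an alternative chosen after seeing the data, the share of let-7 was 1.51% to 2.00% in sham, 1.70% to 2.29% at 2 Gy and 1.87% to 2.23% at 9 Gy, so the lower share at 9 Gy was not seen without it.

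Relatives of let-7 were taken as entries with the let-7 seed, those with a gene within 10 kb of a let-7 gene, miR-125b and miR-202. Of these 11 entries 3 reached the minimum mean, and 0 passed in any of the 3 comparisons, against the shares of all tested miRNAs given above. At an unadjusted p under 0.05 there were 0 of the 3 as well, beside 35, 44 and 20 of the 176 tested miRNAs in the 3 comparisons. MiR-98 and miR-1961, which share the seed, had 2 to 11 and 4 to 15 counts. MiR-99b and miR-125a-5p, whose genes neighbour that of let-7e, had 2 to 11 and 5 to 18 counts, and the log2 fold change of miR-125a-5p was 0.19 at 2 Gy and 0.21 at 9 Gy (adjusted p 0.897 and 0.765 by edgeR).

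The miRNAs most like each member over the 14 samples were found by the Pearson r of log2 scaled counts, which holds the differences between groups and shared scaling and is given as a description. For let-7d these were miR-34b-5p (r 0.90), miR-664 (0.84) and miR-2183 (0.84), and for let-7e miR-466g (0.90), miR-376a (0.89) and miR-297c (0.88). Let-7f had no close match, with a highest r of 0.57 for miR-384-3p. Between members, let-7d and let-7e had the highest r at 0.83, followed by let-7b and let-7d at 0.71. The nearest to let-7c were miR-762 and miR-1940 at 0.68 each and let-7g at 0.52, and the nearest to let-7i was miR-19a at 0.69.

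Let-7g was most like miR-223 (r 0.91), a miRNA of myeloid cells and platelets, and miR-451 and miR-16 (0.85 and 0.83), both abundant in red cells. Its counts of 30, 26, 15, 13 and 19 at 9 Gy stood beside 22, 17, 10, 7 and 11 for miR-223 and 100, 138, 32, 17 and 63 for miR-451. In these 5 samples the 2 highest and the 2 lowest samples were the same for all 3. The 4 red-cell markers summed to 43 to 99 counts in sham, 45 to 350 at 2 Gy and 49 to 219 at 9 Gy. Of the 3 tested, only miR-16 passed at 2 Gy, at 1.81 ± 0.40 (log2 fold change, SE, adjusted p 0.00459 by edgeR), where 13.1% of all tested miRNAs were called higher. MiR-451 had 1.57 and miR-486 0.47 at 2 Gy (adjusted p 0.244 and 0.615 by edgeR), and miR-144 was below the minimum mean. At 9 Gy miR-16 did not pass (1.17, adjusted p 0.0619 by edgeR). The 3 platelet markers summed to 13 to 22, 10 to 31 and 13 to 33 counts. The 4 miRNAs listed as lymphocyte markers summed to 864 to 1049, 499 to 659 and 577 to 1009, and how particular they are to lymphocytes was not tested. Most of each sum was miR-142-5p, which had 844 to 1029 counts in sham, 479 to 644 at 2 Gy and 510 to 755 at 9 Gy. Of the listed markers, miR-142-5p was called lower at both doses, with log2 fold changes of -0.63 at 2 Gy and -0.77 at 9 Gy (adjusted p 3.35e-08 and 8.34e-11 by edgeR), where 3 and 2 of the 176 tested miRNAs were called lower. At 9 Gy no tested miRNA was called lower under hybridisation control scaling or with the median negative control subtracted. With the ligation covariate none was called lower at either dose. MiR-150 had 0.11 and -0.09 (adjusted p 0.903 and 0.910 by edgeR). MiR-155 had 1 count in each sham and 2 Gy sample and 1 to 307 at 9 Gy, so it reached the minimum mean only through its 9 Gy samples, and its call there (adjusted p 0.0474 by edgeR) is against a group at the smallest value of the table. The liver marker miR-122 had 1 to 6 counts and the 3 muscle markers summed to 19 to 33, 22 to 32 and 23 to 33. The part of these cells in the let-7 values was not tested.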

How the data were processed

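The authors isolated RNA from the EV pellets, ran the nCounter mouse miRNA panel and normalised in nSolver 4.0. The deposited values are counts per probe as whole numbers, with control probes present and no scaling seen in them, and there is no alignment step. Some entries, such as let-7a, are at 1 in each sample, below the median negative control. Whether a floor or a background subtraction had been applied to such entries was not tested. Members and lists were chosen with earlier results of these data known. TMM factors over all 599 miRNA entries preceded a minimum mean of 10 counts, which left 176 entries, and let-7a was below it. The counts were fitted by the quasi-likelihood test of edgeR 4.0.16 in R 4.3.3 with all 3 groups in 1 fit, two-sided, with Benjamini-Hochberg adjustment over the 176 entries. Limma-voom (limma 3.58.1) and DESeq2 1.42.0 were alternatives. The fit was run on simulated counts with planted changes. These held no ligation difference between groups and no background floor, so miRNAs near background were not tested this way. Log2 ratios were compared by exact permutation, and ligation relations used all 14400 permutations within dose. Named miRNAs are all let-7 entries, relatives by seed or by a gene within 10 kb, markers, and the 3 most alike miRNAs per member. Sequences and loci are from RefSeq tables of GRCm38.p6. Totals of 4781 to 20150 counts per sample leave most members at 5 to 25 counts, so counting error limits precision.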

Additional observations from a re-analysis of the deposited data

How the results depend on the processing

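Both let-7d and let-7e remained called at 9 Gy versus sham in each of the 14 fits without 1 sample. The number of let-7 miRNAs called at 2 Gy versus sham was 2, and 1 (let-7e, higher) with no filter, with the 100 highest miRNAs, TMM over the tested miRNAs or the hybridisation controls for scaling, with the median negative control subtracted, and by DESeq2. It was also 1 under total count scaling, but this was let-7f, lower. It was 0 with a mean of at least 30 counts (which leaves only let-7f), with the negative control mean plus 2 SD subtracted (which leaves only let-7f above the floor), with the ligation covariate, by limma-voom and by the exact permutation test, and 7, all lower, under ligation scaling. At 9 Gy versus sham it was 2, and 0 with a mean of at least 30 counts, the mean plus 2 SD subtracted, the ligation covariate or the exact permutation test, 1 by limma-voom (let-7e), 3 with the 100 highest miRNAs (let-7d and let-7e higher, let-7f lower), 5 under total count scaling (let-7d higher and 4 lower) and 6, all lower, under ligation scaling. At 9 Gy versus 2 Gy it was 0, and 1 (let-7d) with hybridisation scaling, the median negative control subtracted, an adjusted p under 0.1 or an unadjusted p under 0.05. Without 1 sample the numbers ran from 1 to 2 at 2 Gy and from 0 to 1 between the doses. Replicate numbers of different groups share only a number, with deviations of same-numbered samples correlated between -0.08 and 0.18. With the replicate number as a replicate block, 1 let-7 miRNA was called at 2 Gy (let-7e), 2 at 9 Gy and 1 between the doses (let-7d, adjusted p 0.0186 by edgeR). Values above the background limit numbered 8 of 112, and 46 without NEG_C, 4 against the highest negative control, 57 against the highest other than NEG_C and 86 against the median.

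Directions turned as follows, in log2 fold change. Under ligation scaling at 2 Gy, let-7b to let-7g and let-7i had -3.02, -2.90, -1.87, -1.72, -3.19, -2.66 and -3.02, and at 9 Gy let-7b, let-7d, let-7e and let-7g had -2.50, -0.86, -1.30 and -2.79. Under total count scaling let-7b, let-7c, let-7f, let-7g and let-7i had -0.57, -0.38, -0.61, -0.14 and -0.60 at 2 Gy, and let-7b and let-7g -0.50 and -0.67 at 9 Gy. With the 100 highest miRNAs let-7b, let-7c, let-7f and let-7i had -0.28, -0.092, -0.33 and -0.31 at 2 Gy, and let-7g -0.16 at 9 Gy. TMM over the tested miRNAs gave let-7f -0.016 and let-7i -0.0030 at 2 Gy. Hybridisation scaling gave let-7c, let-7f and let-7i 0.15, 0.012 and 0.020 at 9 Gy, and subtraction of the median negative control gave let-7c and let-7i 0.30 and 0.068. Subtraction of the mean plus 2 SD gave let-7f -0.31 at 2 Gy. With the ligation covariate let-7b, let-7d and let-7i had -0.42, -0.11 and -0.58 at 2 Gy, and let-7b and let-7c -0.065 and 0.46 at 9 Gy. The r of let-7e with ligation was -0.028 after median subtraction, -0.018 with LIG_POS_B alone and -0.21 without the 2 farthest samples. Without 1 sample, let-7c at 9 Gy ran from -0.16 to 0.023, the r of let-7d from -0.13 to 0.73, the r of let-7e from -0.48 to 0.45, and let-7d over let-7e at 2 Gy from -0.40 to 0.042. Apart from the settings whose construction is named, the cause was not tested.

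Over all tested miRNAs, 26 were called at 2 Gy, and 49 with the 100 highest (15 higher and 34 lower), 106 with total counts (12 and 94), 169 with ligation scaling (2 and 167), 17 by limma-voom, 9 with the mean of 30, 5 with the mean plus 2 SD subtracted, 3 with the covariate and 0 by the exact test. At 9 Gy there were 30, and 75 (21 and 54), 145 (15 and 130), 167 (2 and 165), 21, 11, 7, 3 and 0 in the same order, and TMM over the tested miRNAs gave 23 higher and 10 lower. Between the doses there were 0, and 12 with hybridisation scaling, 7 with total counts and 3 each with median subtraction and the block.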
